A study of Mus musculus with 6 samples.

Results

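Voltage-gated sodium and calcium channel genes were followed in prefrontal cortex from wild-type mice of the inbred strain C57BL/6 that had lived either alone or in company for 6 days. The genes were picked out by symbol, with earlier results of these data known. They are the sodium channel alpha and beta subunits (Scn genes) and the calcium channel pore, alpha2delta, beta and gamma subunits (Cacna1, Cacna2d, Cacnb and Cacng genes). The choice gave 39 of the 23284 genes counted, 19 of them pore-forming subunits and 20 auxiliary subunits. RNA was sequenced in 3 libraries per housing group, from mice of 8 to 10 weeks, with no other treatment named for either group. The labels do not say whether a library came from 1 mouse or from several, so p-values reflect only how far these samples spread, and part of that spread may be technical. Levels are given as FPKM, the usual count per exon length and library total, here with TMM-scaled totals, and housing differences on the log2 scale as single-housed minus group-housed.

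A voltage-gated sodium channel is built around 1 large alpha subunit that forms the pore and opens within a fraction of a millisecond of depolarisation, which starts and carries the action potential. Its beta subunits are small membrane proteins with an immunoglobulin-like domain that adjust gating and anchor the channel to other proteins. Calcium channels couple depolarisation to transmitter release, gene transcription and burst firing. Their pore subunits fall into high-voltage-activated types (L, P/Q, N and R), which work with a cytoplasmic beta and an extracellular alpha2delta subunit, and low-voltage-activated T types. Most gamma subunits expressed in brain are known as TARPs, proteins that carry AMPA-type glutamate receptors to the synapse rather than calcium channel subunits in the strict sense.

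Total counts were 25858355 to 33428512 per library, and the channel genes held 0.421% to 0.504% of them. Of the 39 genes, 36 passed the filter on low counts and were tested. The other 3 were Scn4a, the skeletal muscle sodium channel gene, with 0 or 1 count per library, Scn11a, a sensory neuron sodium channel gene, with 0 to 4 counts, and Cacng1, the skeletal muscle gamma subunit gene, with 0 to 17 counts. A library with 0 counts allows a level up to that of 3 counts, 0.0897 to 0.116 CPM across libraries, which covers counting error only. All 6 glutamatergic cortical neuron markers checked (among them Slc17a7) were measured, at a summed 2528 to 2906 CPM. Markers of striatal projection neurons, cells of the region beneath the frontal cortex, were uneven. Of 12 such markers 11 had a row, none at 0 in every library, and their mean log2 CPM was 7.15, 6.11 and 4.07 for single-housed mice (replicates 1, 2 and 3) and 6.08, 4.11 and 4.53 for group-housed mice. Immediate early genes, which report recent neuronal activity, had a lower fitted level in single-housed mice for 6 of 6 markers (summed 373 to 452 CPM against 728 to 918 CPM). In edgeR 0 of 6 passed the adjusted test, and 6 of 6 had an unadjusted p under 0.05, against 1.56% of all genes. DESeq2 called 4 of 6 (Egr2, Fos, Fosb and Egr1), and 8 of all 15258 genes. This list, like the others, was chosen with earlier results of these data known. The part of the striatal or the immediate early list in the housing differences of the channel genes was not tested, except where a value with the striatal markers in the model is given. In whole tissue, fewer cells of a type and less RNA per cell cannot be told apart.

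The proximal promoters of 3 sodium channel genes are shown because their levels followed those markers in different ways (values given further on). Scn2b and Scn4b are neighbours on chromosome 9 in the same orientation, 8.97 kb apart in the deposited mm9 coordinates (Scn2b, 44925959 to 44938153, and Scn4b, 44947125 to 44962144), and Scn7a lies on chromosome 2 (66511483 to 66622967). Each sequence is the 250 bases before the RefSeq start site in GRCm38.p6, a later build than that of the counts, read 5′ to 3′ on the gene's strand, with CpG pairs in capitals.
Scn4b, chr9:45138374-45138623, plus strand: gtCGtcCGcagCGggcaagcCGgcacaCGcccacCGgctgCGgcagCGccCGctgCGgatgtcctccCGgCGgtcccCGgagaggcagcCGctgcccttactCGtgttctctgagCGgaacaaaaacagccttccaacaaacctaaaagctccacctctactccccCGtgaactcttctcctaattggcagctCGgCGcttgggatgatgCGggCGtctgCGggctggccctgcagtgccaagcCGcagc
Scn2b, chr9:45117626-45117875, plus strand: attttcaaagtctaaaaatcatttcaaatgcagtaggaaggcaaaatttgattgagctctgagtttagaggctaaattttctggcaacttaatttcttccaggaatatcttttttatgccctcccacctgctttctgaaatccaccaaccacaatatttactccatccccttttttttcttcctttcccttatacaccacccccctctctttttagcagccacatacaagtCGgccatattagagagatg
Scn7a, chr2:66784911-66785160, minus strand: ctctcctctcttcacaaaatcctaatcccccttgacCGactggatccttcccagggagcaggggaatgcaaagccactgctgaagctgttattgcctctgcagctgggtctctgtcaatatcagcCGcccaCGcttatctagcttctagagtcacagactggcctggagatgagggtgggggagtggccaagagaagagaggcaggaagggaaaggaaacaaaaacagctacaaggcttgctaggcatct
The Scn4b window held 23 CpG pairs at 66% G and C, the Scn2b window 1 at 38.4% and the Scn7a window 3 at 53.2%. Whether promoter sequence bears on how these levels followed the markers was not tested. The median over 32851 promoter windows of this length was 6 CpG pairs, and over the 39 windows that matched 29 of the channel genes it was 8. The letters GGGCGG on either strand (a GC box) were in 38.5% of the channel windows, Scn7a among them, and in 32.7% of all windows. TATAAA on either strand was in 1 of the 39 channel windows and in 12.4% of all windows. TGACGTCA (the cyclic AMP response element) was in 0 of 39 and in 1.55% of all, and CACGTG (an E-box) in 0 of 39 and in 6.02% of all.

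Auxiliary subunit transcripts outnumbered pore transcripts per length. The summed level of the 20 auxiliary genes was 1206, 1098 and 1084 FPKM for single-housed mice (replicates 1, 2 and 3, the order used throughout) and 1067, 1086 and 1169 FPKM for group-housed mice. The 19 pore genes together reached 186, 170 and 178 FPKM against 142, 201 and 167 FPKM. Pore genes thus made up 13.5% ± 1.35 of the summed level (SD, n = 6 libraries; range 11.7% to 15.6%), at 13.6% ± 0.426 for single housing and 13.3% ± 2.06 for group housing (n = 3 each). The 6 TARP genes held 22.8% ± 0.962 and the 4 calcium beta genes 18.2% ± 0.560. The auxiliary sum includes these TARP genes. The pore sum leaves out Scn2a1, a sodium pore gene outside the symbol rule, at 38.8 ± 5.11 FPKM (SD, n = 6). The share of pore genes therefore holds only for the genes chosen by symbol. These levels depend on the deposited exon length, which had a median of 8287 bases in the pore genes tested and 3695 in the auxiliary genes tested, and which was 828 and 775 bases for Cacng7 and Cacng8.

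**Figure D1:**
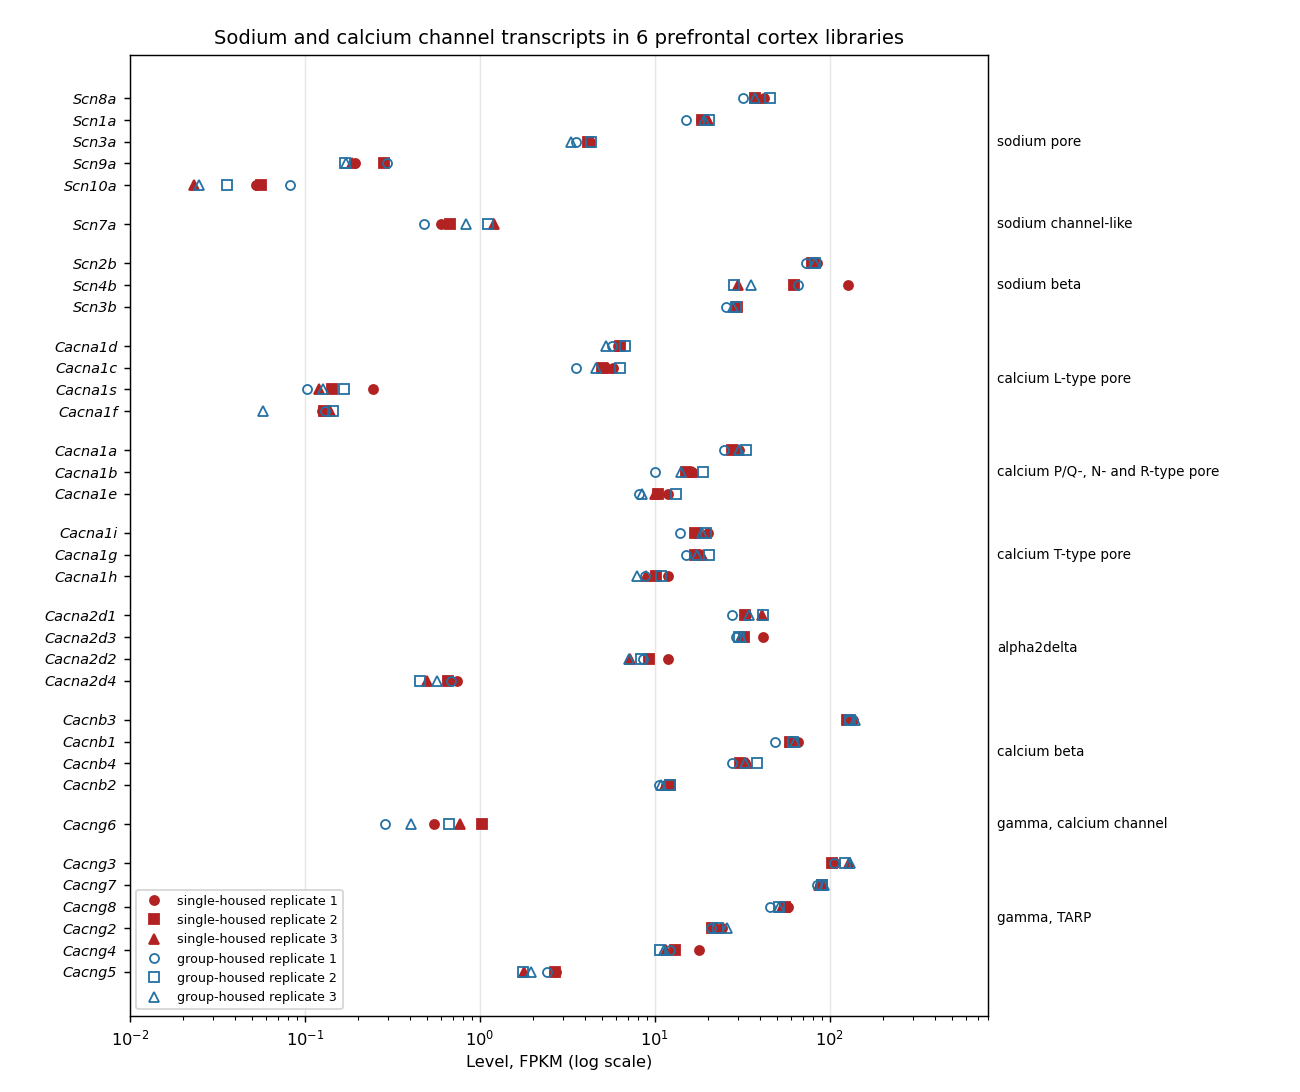
Level of tested channel genes in FPKM (log axis; 2 of the 36 are not drawn), with 1 point per library, filled red for single-housed and open blue for group-housed mice, and the point's shape for the replicate number. Genes are grouped by subunit class and ordered by mean level; the points of Scn4b, from 28.4 to 127 FPKM, spread far wider than those of its neighbour Scn2b.

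Among sodium channel pores, Scn8a, the channel of nodes of Ranvier and axon initial segments, was at 42.2, 37.2 and 38.6 FPKM in single-housed and 31.8, 45.7 and 37.3 FPKM in group-housed libraries. The group-housed values lay on both sides of the single-housed ones (log2 difference 0.04, SE 0.126). Scn1a, whose product is prominent in inhibitory neurons and whose loss causes epilepsy, was at 18.4, 18.7 and 20.03 against 15.1, 20.3 and 19 FPKM. Scn2a1, the older symbol of the excitatory neuron channel gene Scn2a, falls outside the symbol rule but is the remaining major brain channel. It was at 38.1, 38.6 and 42.1 against 30.1, 45.4 and 38.6 FPKM (difference 0.06, SE 0.135), level with Scn8a at 38.8 ± 5.11 and 38.8 ± 4.76 FPKM (SD, n = 6). Scn3a, a channel gene best known from the developing brain, was lower at 3.98 ± 0.433 FPKM (SD, n = 6). Of the summed level of the 8 sodium pore genes (Scn2a1 not included), Scn8a held 62.6% ± 1.54 and Scn1a 30.1% ± 1.55 (SD, n = 6).

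The sensory neuron channel genes were near the lower limit. Scn10a had 5 to 14 counts per library. Scn9a, the other one tested, had 51 to 93 counts, but 319 of its exon bases lie opposite exons of Gm13629, a gene on the other strand with 375 counts over the 6 libraries. The strand setting of the counting is not given, so the Scn9a counts are uncertain. Scn7a, which encodes a sodium-sensing channel that is not gated by voltage, was at 0.599, 0.673 and 1.21 against 0.477, 1.11 and 0.831 FPKM.

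Neighbouring channel genes had very different levels. On chromosome 2, Scn3a, Scn2a1, Scn1a, Scn9a and Scn7a follow each other (65295175 to 66622967 in mm9) at mean levels of 3.98, 38.8, 18.6, 0.216 and 0.816 FPKM. The gamma genes Cacng7, Cacng8 and Cacng6 follow each other on chromosome 7 (3336685 to 3435658) at 88.4, 52.4 and 0.617 FPKM. Cacng1, Cacng4 and Cacng5 do so on chromosome 11 (107564532 to 107776369) at 0.149, 12.8 and 2.22 FPKM.

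Among the sodium beta genes, Scn2b, whose product is bound to the pore by a disulfide bridge, was at 84.2, 79.05 and 80.4 against 72.7, 82 and 81.8 FPKM and Scn3b at 28.2 ± 1.49 FPKM (SD, n = 6). Both varied 1.16-fold between the highest and the lowest library.

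Scn4b, whose product can act as an open-channel blocker and give rise to resurgent sodium current, varied 4.47-fold. The single-housed libraries stood at 127, 62.6 and 29.9 FPKM and the group-housed ones at 65.9, 28.4 and 35.5 FPKM. The 3 libraries with the higher striatal marker means, single-housed replicates 1 and 2 and group-housed replicate 1, were the 3 with the higher Scn4b level.

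The slope of each gene on the striatal marker mean was tested with housing in the model (edgeR's quasi-likelihood test, Benjamini-Hochberg adjusted over all 15258 genes tested). Over all genes 264 slopes, 1.73%, passed at 0.05, of which 242 (1.59%) were positive and 22 (0.144%) negative. Of the 36 channel genes 2 passed, and at an unadjusted p under 0.05 there were 11, against 12.6% of all genes. Scn4b was named before this fit as a known striatal gene, and it is not on the marker list. It rose with the markers by 0.64 log2 units per log2 unit (SE 0.0447, adjusted p = 9.30e-05). This slope was 0.57 to 0.68 when any 1 library was left out and stayed past the threshold each time (adjusted p up to 0.00287). Scn7a fell by 0.41 per unit (SE 0.0670, adjusted p = 0.0158). Its slope was −0.35 to −0.50 when 1 library was left out, but it no longer passed when the library left out was single-housed replicate 2 (adjusted p = 0.0510) or 3 (0.155), or group-housed replicate 1 (0.0767) or 3 (0.0739). Scn2b, next to Scn4b on the chromosome, had a slope of −0.02 (SE 0.0350, adjusted p = 0.896).

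Oligodendrocyte markers moved with the same libraries. Their summed level was 4216, 4014 and 1995 CPM in single-housed and 5391, 1968 and 3109 CPM in group-housed libraries. It was highest in group-housed replicate 1, whereas the striatal marker mean and Scn4b were highest in single-housed replicate 1. Of these markers, 7 of 7 had a positive slope that passed. The part of striatal neurons and of oligodendrocytes in the Scn4b and Scn7a slopes was not tested. Other channel genes with positive slopes did not pass, among them Cacng5 (0.22, SE 0.0516, adjusted p = 0.0924) and Cacna2d2 (0.18, SE 0.0472, 0.129), nor did Cacna2d1 with a negative slope (−0.16, SE 0.0423, 0.133). With the gene length trend removed, 4 channel genes passed against 2.2% of all genes in that fit, Cacna2d2 (adjusted p = 0.0280) and Cacna2d1 (0.0395) being the additional ones.

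**Figure D2:**
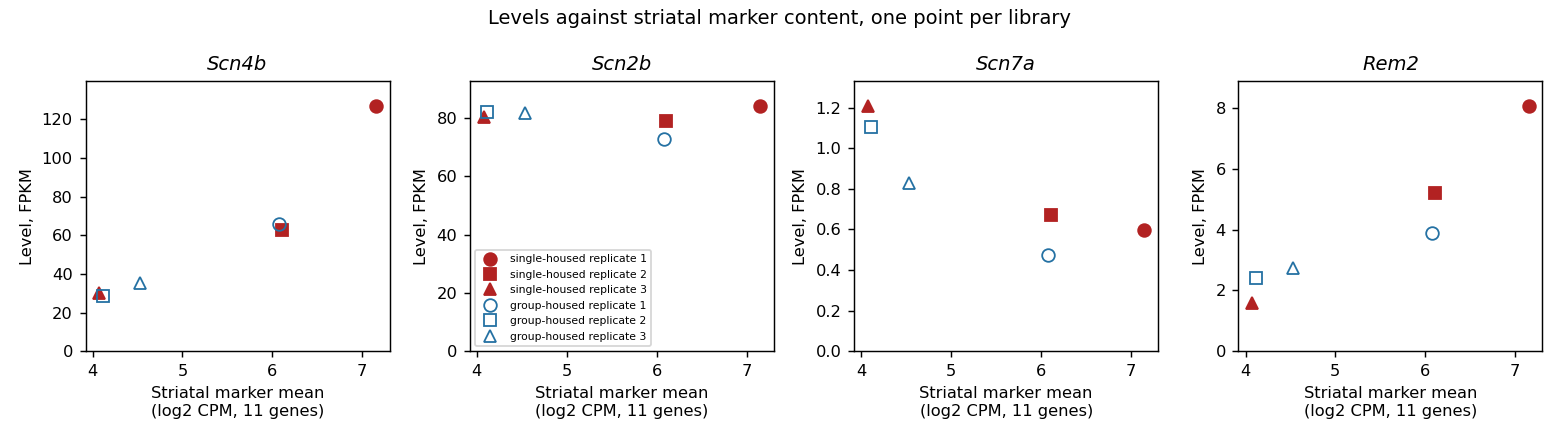
Level in FPKM (y axis from 0) of Scn4b, Scn2b, Scn7a and the channel regulator Rem2 against the mean log2 CPM of 11 striatal markers (x axis), with 1 point per library, filled red for single-housed and open blue for group-housed mice. Scn4b and Rem2 climb to 127 and 8.07 FPKM in the library with the highest marker mean, Scn2b is flat, and Scn7a is highest in the libraries with the lowest marker means.

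High-voltage-activated calcium channel pores were led by Cacna1a, the P/Q-type gene of fast transmitter release, at 30.1, 27.4 and 30.0 FPKM in single-housed and 24.8, 33.1 and 30.1 FPKM in group-housed libraries. Cacna1b, the N-type gene, was at 16.3, 15.02 and 16.5 against 10, 18.8 and 14 FPKM, and Cacna1e, the R-type gene, at 11.9, 10.4 and 10 against 8.12, 13.2 and 8.47 FPKM. In each of these genes group-housed replicate 1 was the lowest library and group-housed replicate 2 the highest. Cacna1a held 53.7% ± 2.98, Cacna1b 27.4% ± 2.16 and Cacna1e 18.9% ± 1.69 of their summed level (SD, n = 6).

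The L-type genes Cacna1d and Cacna1c, which link depolarisation to transcription in neurons, had overlapping levels. Cacna1d was at 6.14, 6.31 and 6.23 against 5.71, 6.75 and 5.23 FPKM. Cacna1c was at 5.72, 4.95 and 5.38 against 3.53, 6.29 and 4.61 FPKM, with group-housed replicates 1 and 2 again at the ends. The skeletal muscle and retinal L-type genes Cacna1s and Cacna1f were at 17 to 50 and 11 to 28 counts per library. T-type channels, which open near rest and support burst firing, were represented by 3 genes. Cacna1i was at 20.1, 16.9 and 18.2 against 13.9, 19.5 and 18.7 FPKM and Cacna1g at 17.7, 16.9 and 18.5 against 15, 20.4 and 17.3 FPKM. Cacna1h was lower at 11.8, 10.1 and 8.85 against 8.79, 10.9 and 7.87 FPKM. Cacna1i and Cacna1g did not differ beyond their spread, at 39.5% ± 2.01 and 39% ± 1.81 of the T-type sum. Parts of Cacna1d (528 bases, opposite Chdh) and Cacna1h (156 bases, opposite Tpsg1) overlap exons of genes on the other strand, which had 829 and 6 counts over the 6 libraries against 10574 and 15102 for the channel genes.

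Among alpha2delta subunits, which bring calcium channels to the surface and of which the first 2 bind gabapentin, Cacna2d1 was at 33.0, 32.9 and 41.0 FPKM in single-housed and 27.6, 41.3 and 34.6 FPKM in group-housed libraries. Cacna2d3 was nearly as high at 41.2, 32.2 and 31 against 29.0, 30.4 and 30.8 FPKM. Every single-housed library of Cacna2d3 was above every group-housed library, by a narrow margin except in single-housed replicate 1 (difference 0.21, SE 0.109; exact permutation p = 0.1, two-sided, the lowest value reachable with 3 against 3). Without that library the difference was 0.07 (SE 0.0770). Cacna2d2 was at 11.8, 9.25 and 7.18 against 8.57, 8.28 and 7.09 FPKM, and Cacna2d4, known from the retina, at 0.601 ± 0.110 FPKM.

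The calcium beta subunits hold the pore at the membrane and set its gating. Cacnb3 led at 135, 124 and 134 FPKM in single-housed and 129, 130 and 138 FPKM in group-housed libraries, with groups that overlapped. Cacnb1, best known from skeletal muscle but also expressed in brain, was at 65.3, 59 and 59.1 against 48.4, 61.7 and 63.1 FPKM. Cacnb4, the gene mutated in the lethargic mouse, was at 32.7, 30.8 and 33.7 against 27.4, 38.5 and 32.7 FPKM, and Cacnb2 at 11.5 ± 0.665 FPKM (SD, n = 6). The groups overlapped in all 4 genes. Cacnb3 varied 1.11-fold between libraries, and only Cacng7 (1.09-fold) varied less among the tested channel genes.

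The TARP genes were led by Cacng3 at 107, 103 and 129 FPKM in single-housed and 105, 122 and 131 FPKM in group-housed libraries, followed by Cacng7 at 87.2, 89.8 and 86.1 against 84.6, 90.4 and 92.3 FPKM. Cacng8, the hippocampal and cortical TARP gene, was at 57.9, 55.7 and 52.9 FPKM in single-housed and 45.3, 51.0 and 51.4 FPKM in group-housed libraries. These groups did not overlap (difference 0.17, SE 0.0812; exact two-sided permutation p = 0.1). Cacng2, which encodes stargazin and is the gene mutated in the stargazer mouse, was at 24.1, 21.2 and 22.6 against 21, 22.8 and 25.7 FPKM (−0.03, SE 0.0909). Cacng3 had a difference of −0.08 (SE 0.111), from −0.18 without single-housed replicate 3 to −0.0046 without group-housed replicate 3, and Cacng4 was at 17.9, 13.1 and 11.5 against 12.2, 10.7 and 11.2 FPKM (0.32, SE 0.160; 0.11 without single-housed replicate 1). Cacng5, a minor TARP gene, was at 2.22 ± 0.447 FPKM. Cacng6, a gamma gene that is not a TARP, had 14, 27 and 20 counts against 6, 16 and 10 counts (0.76, SE 0.383; 0.52 when single-housed replicate 2 was left out, 1.15 when group-housed replicate 2 was), and Cacng1 had 17, 9 and 2 against 0, 4 and 3 counts.

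No channel gene passed the test for housing. With edgeR's quasi-likelihood test, 0 of the 36 genes passed over all genes tested, where 0% of all 15258 genes did. DESeq2 and limma-voom also called 0 channel genes, where they called 8 and 0 of all 15258 genes. At an unadjusted p under 0.05 there was 1 channel gene in edgeR, 1 in DESeq2 and 0 in limma-voom. The background in edgeR was 1.56% of all genes (0.832% higher and 0.727% lower). In DESeq2 it was 147 and in limma-voom 221 of all 15258 genes. The groups did not overlap for 2 of 36, Cacna2d3 and Cacng8, both with single-housed libraries above. That is 5.56% of them, against 4.86% of all genes (2.46% above and 2.4% below), a share near the background. With the striatal marker mean in the model, 0 channel genes passed in edgeR and 2, Scn7a and Cacng6, had an unadjusted p under 0.05, against 2.69% of all genes. Scn4b had a difference of 0.76 (SE 0.479), which was 0.10 without single-housed replicate 1, 1.20 without group-housed replicate 1 and 0.06 (SE 0.104) with the striatal covariate.

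**Figure D3:**
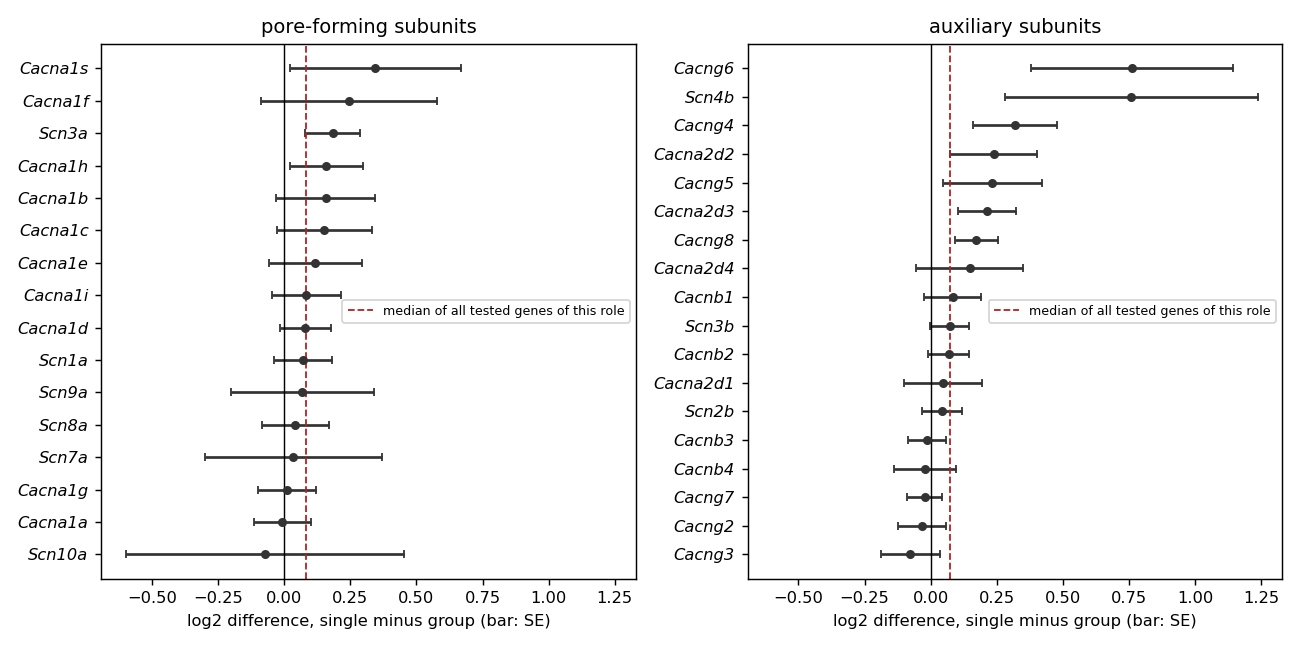
Fitted log2 difference (single-housed minus group-housed) of tested channel genes (2 of the 36 are not drawn) with its standard error, pore-forming subunits on the left and auxiliary subunits on the right; the dashed line is the median of all tested genes of that role. Most points lie slightly right of 0, with medians of 0.08 and 0.07, and of the genes drawn Cacng6 and Scn4b lie farthest out at 0.76 each, with bars of 0.383 and 0.479.

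Most pore-forming subunits shared a sign. Of 17 tested, 15 had a higher fitted level in single-housed libraries (median 0.08), against 13 of 19 auxiliary subunits (median 0.07) and 50.7% of all genes tested (median 0.0015). Since 0 of them passed, these are counts of signs. By class, the signs were higher for 4 of 4 L-type, 3 of 3 T-type, 2 of 3 P/Q-, N- and R-type and 5 of 6 sodium pore genes. They were higher for 4 of 4 alpha2delta, 2 of 4 calcium beta and 3 of 6 TARP genes. The L-type genes Cacna1f and Cacna1s and the sodium pore genes Scn9a and Scn10a had few counts, so their signs are uncertain. The pore count rested on 1 library: without group-housed replicate 1 it was 8 of 17 with a median of −0.0091, and without group-housed replicate 2 it was 15 of 17 with a median of 0.30. The auxiliary median was 0.02 and 0.13 in those fits.

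Those libraries also differed in the median of other long genes. The median deviation of the 17 pore genes from their 6-library mean was 0.13, 0.02 and 0.04 log2 units in the single-housed libraries and −0.28, 0.18 and −0.18 in the group-housed ones. For 1706 other genes with at least 6000 exon bases, a length that all 17 of these pore genes reach, it was 0.05, −0.0019 and 0.02 against −0.13, 0.12 and −0.04. For 2574 other genes under 1500 bases it was −0.02, 0.0040 and −0.02 against 0.13, −0.12 and 0.05. Group-housed replicate 1, the shallowest library, was thus low in long genes and high in short ones, and group-housed replicate 2 the opposite. Group-housed replicate 1 was the lowest library for 10 of 17 pore genes and 11 of 19 auxiliary genes, against 26.4% of all genes tested (and the highest for 26% of them). Group-housed replicate 2 was the highest for 10 of 17 pore genes, against 20% of all genes, and single-housed replicate 1 for 9 of 19 auxiliary genes, against 16.1%.

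Of the other long genes 73.1% had a higher fitted level in single-housed libraries (median 0.04), and of the short genes 36.2% (median −0.03). When each library's trend with gene length was removed, an alternative added after seeing the data, 13 of 17 pore genes were higher with a median of 0.04, and 14 of 19 auxiliary genes with a median of 0.05. The Scn8a difference was then −0.0023 (SE 0.0650). RNA integrity was not tested, as no measure of it was used here. The auxiliary genes, which span 775 to 8280 exon bases, had a narrower spread of library medians (−0.12 to 0.08) than the pore genes (−0.28 to 0.18).

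**Figure D4:**
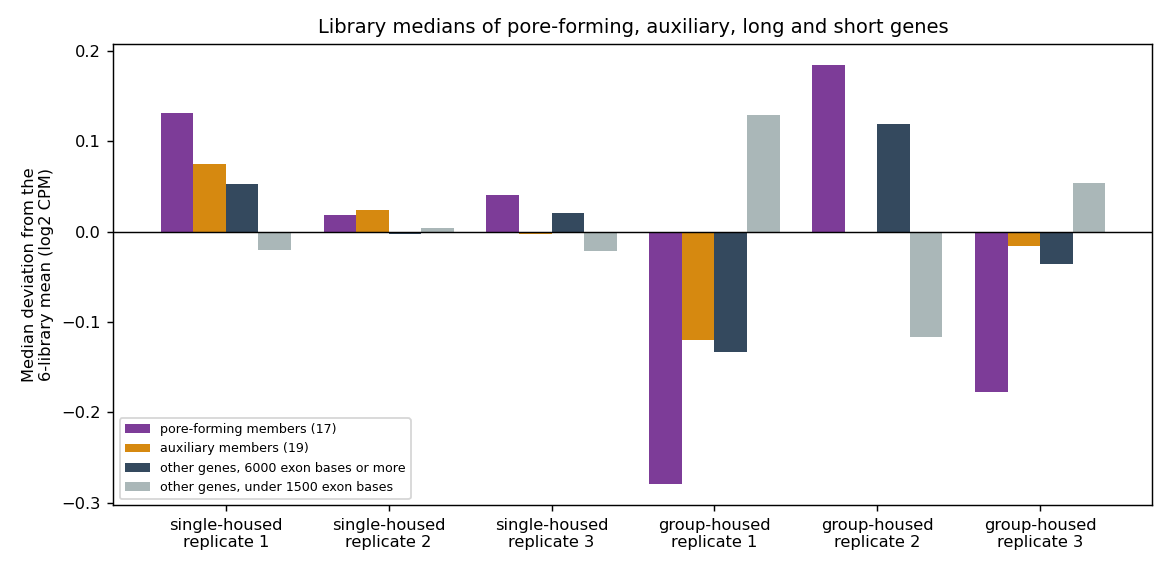
Median deviation from the 6-library mean (log2 CPM) in each library for the 17 tested pore-forming genes, the 19 tested auxiliary genes, 1706 other genes of 6000 exon bases or more and 2574 other genes under 1500 bases. Pore genes and other long genes dip together in group-housed replicate 1 and rise together in group-housed replicate 2, while short genes go the other way.

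Proteins that bind, anchor or regulate these channels were read from a list of 30 genes, of which 29 had a row and all 29 were tested. For housing 0 passed, with 13 higher and 16 lower (median −0.01), and 1 had an unadjusted p under 0.05, against 1.56% of all genes. That gene was Rrad, a small GTPase gene of the family that restrains high-voltage-activated calcium channels, at 1.03, 0.797 and 0.933 FPKM in single-housed and 1.38, 1.12 and 1.21 FPKM in group-housed libraries (−0.43, SE 0.185). Its groups did not overlap, which held for 1 of the 29 genes (3.45%), a share below the 4.86% of all genes. Cabp1, a calcium-binding regulator gene, was at 138, 128 and 138 against 152, 133 and 160.04 FPKM (−0.14, SE 0.0856). The sodium channel-binding growth factor homologue gene Fgf11 was at 7.56, 6.61 and 5.57 against 5.26, 6.37 and 4.82 FPKM (0.26, SE 0.168). The groups overlapped in both genes.

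Rem2, another GTPase gene of the same family as Rrad, was at 8.07, 5.21 and 1.57 FPKM in single-housed and 3.90, 2.39 and 2.73 FPKM in group-housed libraries (0.72, SE 0.475). It was the 1 partner gene whose slope on the striatal marker mean passed (0.64, SE 0.0845, edgeR adjusted p = 0.00567), a slope as steep as that of Scn4b. Leaving out single-housed replicate 3 ended the call (0.41, adjusted p = 0.144).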

How the data were processed

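RNA was column-purified and libraries were made with a stranded mRNA kit, per the labels' protocols. The submitters' processing notes name FastQC, STAR, featureCounts and build mm9. Neither their versions nor annotation release and strandedness of counting were found (not given in the sources used here). Per the file headers, the authors deposited unnormalized read counts per gene and each gene's exon length. Groups follow the housing label.

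The counts were scaled by TMM and tested in edgeR 4.0.16 (R 4.3.3) by the quasi-likelihood F-test after a filter (minimum count 10, minimum total 15) that kept 15258 of 23284 genes. P-values were adjusted over all of them by Benjamini-Hochberg (threshold 0.05). Standard errors came from the F statistic. The common biological coefficient of variation was 11.8%, and log2 CPM used a prior count of 2. The fits were also run on simulated data, but the outcome is not given here and no result rests on it. Alternatives were DESeq2 1.42.0, limma-voom (limma 3.58.1), robust empirical Bayes, other filters, libraries left out, the replicate block, the striatal covariate and removal of the length trend.

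The genes, lists and tests were chosen with earlier results of these data known. Values in every library are given for genes that led their class or exceeded 10% of its sum, had 1 of the 3 smallest p-values in a direction, did not overlap between groups, differed by more than 0.5 or had a called slope. Of the partners they are given for the 2 smallest p-values in each direction. RefSeq promoters (GRCm38.p6) were matched for 29 genes. Results of some genes are not reported here; they remain in the counts, sums and medians.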

Additional observations from a re-analysis of the deposited data

How the results depend on the processing

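The count of channel genes called with housing was 0 under every alternative run, including each library left out. Over all genes, 8 were called by DESeq2 (4 of them on the immediate early list), 4 when the 3 libraries highest in striatal markers were left out (1 against 2, the lone library assumed to vary like the others) and 0 to 1 with 1 library left out. With 1 library left out, the median log2 difference was 0.0045 to 0.18 over channel genes, −0.0091 to 0.30 over pore genes and 0.018 to 0.13 over auxiliary genes, and 8 to 15 of 17 pore genes were higher. Without those 3 libraries the median was −0.026 over channel genes and −0.026 over auxiliary genes, 7 of 16 pore and 7 of 19 auxiliary genes were higher, and the differences of Scn4b, Scn8a and Cacng3 were −0.093, −0.10 and 0.031. Scn8a ranged from −0.075 to 0.19 and Cacng2 from −0.10 to 0.047 with 1 library left out; Scn8a was −0.0023 with the length trend removed and Cacng3 0.015 with the striatal covariate. For these the cause was not tested. The count of channel genes called on the striatal marker mean was 1 to 3 with 1 library left out (0.476% to 2.25% of all genes), 3 without the housing term (Scn4b and Cacng5 among them, against 1.61% of all genes) and 4 with the length trend removed; without the housing term Scn7a was not called (−0.35, adjusted p = 0.0516). The summed level of the 39 genes was 1292 FPKM and 3771 on a TPM-like scale.

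The replicate number as a block gave 0 channel genes called, 16 of 17 pore genes higher and medians of 0.09 for pore and 0.07 for auxiliary genes. Same-numbered libraries did not deviate together (correlations of 0.27, −0.32 and 0.17 for replicates 1, 2 and 3, across genes), so the numbers were not taken as pairs. Genes with few counts (Scn10a, Scn9a, Cacna1f, Cacna1s and Cacng6) allow no fine comparison at this depth.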
